A study of Rattus norvegicus with 16 samples.

Results

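Saccharin drinkers were compared with water drinkers in the gustatory cortex (GC), the taste area of the insular cortex, with time after drinking as a block. All 16 of the 16 arrays of the series entered, the 8 titled saccharin against the 8 titled water, with 1 array per rat. The rats were male Wistar Hola rats, 2 months old by the sample labels, and every rat, water drinkers included, had been water restricted for 3 days before the test. On the test day 8 rats drank water, their familiar fluid, and 8 drank 0.1% saccharin, which was new to them. The GC was taken 1 h or 3 h later, which gave 4 groups of 4 rats, namely water 1 h, saccharin 1 h, water 3 h and saccharin 3 h. The saccharin solution was both sweet and unfamiliar, so sweetness and novelty cannot be told apart in these groups. Rats that did not drink were not analysed here. The arrays numbered C365 to C372 are those of 3 h and C373 to C380 those of 1 h. Both ranges of numbers hold both tastes.

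Taste information reaches the GC from the taste buds through the brainstem and thalamus, and the cortex helps to store whether a taste is known and safe. Drinking an unfamiliar taste without harm starts a memory of it, and such memories are thought to need new transcription in the GC. Neurons that fire strongly transcribe immediate early genes, among them Fos, Arc and Nr4a1, whose mRNA rises and falls within hours, so a difference between tastes can be short lived or can persist. The question here was which genes differed in the same direction at 1 h and at 3 h.

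The deposited values are log2 expression per probe set. The 16 arrays had medians of 5.08 to 5.17, any 2 arrays correlated at 0.995 to 0.997 (Pearson), and 0 of 120 pairs were identical. Markers of cortical excitatory neurons, such as the vesicular glutamate transporter gene Slc17a7, had a mean log2 level of 8.91 to 9.06 in every array, and the ranges of the tastes overlapped at both times. Since whole tissue was measured, fewer cells of a type and less RNA per cell cannot be told apart. All differences are saccharin minus water on the log2 scale.

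No gene differed between saccharin and water beyond the spread between rats once all tests were accounted for. Of 15209 probe sets, each paired with 1 gene, 0 were called in limma at a Benjamini-Hochberg adjusted p under 0.05 (0%), and the smallest adjusted p was 0.278. At an unadjusted p under 0.05 there were 536 (3.52%), of which 210 were higher after saccharin (1.38%) and 326 lower (2.14%). The differences were small. Their SD over probe sets was 0.05, the median absolute difference was 0.03, and the median standard error was 0.05. The 95% interval of the difference lay wholly within ±0.32 on the log2 scale, the size of change that the study's own cut-off asks for, for 15014 probe sets (98.7%). Among the 5552 probe sets with a mean of at least 7, called bright below, this held for 5519 (99.4%).

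Only 3 of the probe sets tested separated the tastes completely at each time and in the same direction, and in each of them saccharin was the lower. They were of C14h7orf57, an uncharacterised open reading frame, Tulp2, a member of the tubby-like protein family, and Dtwd2, an enzyme that modifies transfer RNA. This is 0.0197% of 15209, against 228 (1.5%) without overlap at 1 h and 291 (1.91%) at 3 h. Of the 4900 arrangements of the taste labels within the times, a share of 0.000408 separates a given probe set in this way. The share found was not above that. At 1 h 97 of the 228 were higher after saccharin and 131 lower, and at 3 h the 291 divided into 126 and 165. A further probe set, of Lgals4, separated the tastes at both times in opposite directions.

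The promoters of these 3 genes are shown because they met this rule of no overlap, and none of the 3 was called. All 3 were found in RefSeq on build GRCr8, and each runs from 250 bases before to 50 bases after the start of transcription, 5′ to 3′ on the strand of the gene. Capitals mark TGACG, the core motif of the cAMP response element to which the transcription factor CREB can bind, searched on both strands. The windows are chr14:87961981-87962280 on the plus strand, chr1:105098717-105099016 on the plus strand and chr18:45088370-45088669 on the minus strand.
C14h7orf57: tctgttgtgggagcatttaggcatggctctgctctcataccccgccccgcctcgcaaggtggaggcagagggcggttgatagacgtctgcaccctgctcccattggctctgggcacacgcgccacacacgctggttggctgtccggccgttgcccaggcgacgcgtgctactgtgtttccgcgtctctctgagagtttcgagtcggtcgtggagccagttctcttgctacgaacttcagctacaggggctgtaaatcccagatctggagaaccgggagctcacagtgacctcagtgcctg
Tulp2: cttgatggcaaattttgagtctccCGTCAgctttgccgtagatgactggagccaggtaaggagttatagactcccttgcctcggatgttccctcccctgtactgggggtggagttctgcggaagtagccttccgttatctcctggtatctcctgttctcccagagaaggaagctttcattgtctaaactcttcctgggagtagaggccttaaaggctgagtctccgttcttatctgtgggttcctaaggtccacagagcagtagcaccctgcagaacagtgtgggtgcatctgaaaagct
Dtwd2: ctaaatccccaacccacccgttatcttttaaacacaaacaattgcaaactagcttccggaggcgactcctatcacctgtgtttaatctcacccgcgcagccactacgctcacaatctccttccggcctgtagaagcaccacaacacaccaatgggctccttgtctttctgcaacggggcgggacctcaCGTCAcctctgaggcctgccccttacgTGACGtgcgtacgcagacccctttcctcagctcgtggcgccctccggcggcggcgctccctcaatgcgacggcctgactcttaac
The motif TGACG occurred 0 times in the window of C14h7orf57, 1 time in that of Tulp2 and 2 times in that of Dtwd2, and 21.2% of 33469 rat promoters hold at least 1. The AP-1 site TGANTCA, held by 7.33% of promoters, and the TATA box TATAAA, held by 14.2%, were found 0 times in all 3 windows on either strand. The CpG count was 20 in C14h7orf57, 22 in Dtwd2 and 6 in Tulp2, beside a median of 7. These are matches of letters and do not show that a factor binds.

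C14h7orf57 (probe set 10774163) was the only gene whose 8 saccharin arrays all lay below the 8 water arrays. At 1 h it stood at 4.67, 4.59, 4.57 and 4.77 after water and 4.38, 4.42, 4.48 and 4.53 after saccharin. The 3 h arrays gave 4.60, 4.73, 4.63 and 4.58 after water and 4.36, 4.41, 4.25 and 4.45 after saccharin. Its water level hardly moved between the times, with means of 4.65 ± 0.09 and 4.64 ± 0.07 (SD, n = 4 each). The difference was -0.23 (standard error 0.04, 95% interval -0.32 to -0.15), which is 0.851-fold, and it was -0.20 at 1 h and -0.27 at 3 h. An exact permutation test of the tastes within each time gave p = 0.000408, the smallest that its 4900 arrangements can give. C14h7orf57 was picked for complete separation at both times, which fixes this p, so it adds no support. For this gene limma's adjusted p over all probe sets was 0.278 and did not pass. Over 27 alternatives its adjusted p ranged from 0.194 to 0.873.

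Tulp2 (probe set 10706838) stood at 3.19, 3.37, 3.27 and 3.19 after water and at 3.16, 3.13, 2.85 and 3.14 after saccharin at 1 h. At 3 h the levels were 3.15, 3.20, 3.26 and 3.19 after water and 3.06, 2.93, 3.01 and 2.99 after saccharin. The gap at 1 h was thin, between 3.19 and 3.16, and the arrays of this probe set were near the low end of the scale. The difference was -0.19 (standard error 0.04, interval -0.28 to -0.10, limma adjusted p = 0.978), with -0.18 at 1 h and -0.20 at 3 h. When quantile normalization was repeated over the tested probe sets, Tulp2 no longer separated the tastes at both times, while C14h7orf57 and Dtwd2 still did.

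Dtwd2 (probe set 10804452) was the brightest of the 3. It stood at 5.73, 5.77, 5.70 and 5.85 after water and at 5.50, 5.61, 5.69 and 5.68 after saccharin at 1 h. Its 3 h arrays gave 5.75, 6.0, 5.84 and 5.78 against 5.62, 5.74, 5.66 and 5.69. Here too the edges nearly met, at 5.70 against 5.69 and at 5.75 against 5.74. The difference was -0.16 (standard error 0.04, interval -0.24 to -0.07, limma adjusted p = 0.999), with -0.14 at 1 h and -0.17 at 3 h. For Tulp2 and Dtwd2, as for C14h7orf57, the exact permutation p was 0.000408, which complete separation at both times fixes.

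**Figure D1:**
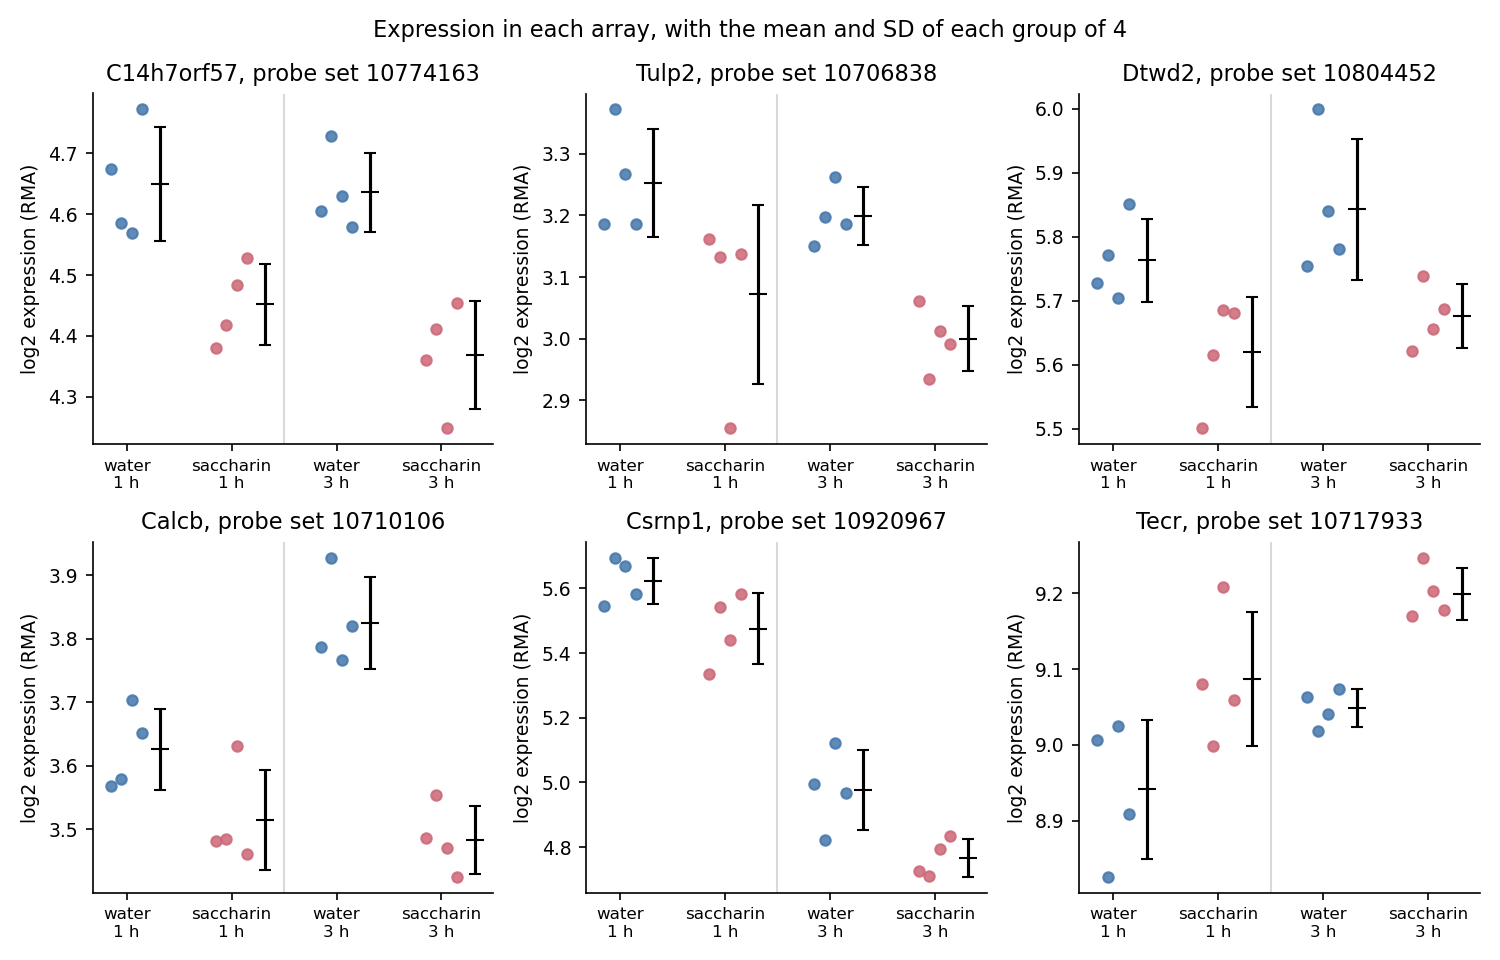
Log2 expression (vertical axes, RMA, not starting at 0) in each of the 16 arrays for 6 genes, split by fluid and hour, and each group's mean ± SD (n = 4) drawn alongside. In the upper row saccharin lies below water at both times without overlap. In the lower row Calcb and Tecr separate the tastes at 3 h and overlap at 1 h, and Csrnp1 overlaps at both times.

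A wider set of 18 probe sets had an unadjusted p under 0.05 at both times and the same sign, 16 of them lower after saccharin and 2 higher. With the 3 genes above, the lower ones were Calcb, Or13c7, Pla2g2a, Ccdc68, Csrnp1, Isoc2b, Nkiras2, Samd13, Nmb, Serpina9, Syk, Sel1l2 and Fam89a, and the higher ones were Tecr and Plekhf2. Some of these 18 are named here beyond the rule for named genes and were chosen after their values were seen. Another 12 probe sets were under 0.05 at both times with opposite signs. Leaving out any 1 array gave 11 to 21 lower and 2 to 8 higher, and repeated quantile normalization gave 11 and 5. A trended robust prior gave 8 lower, 1 higher and 8 of opposite sign, and the array number within each time as a covariate gave 17, 8 and 8. With only probe sets of a mean of at least 5 fitted, 5 were lower, 2 higher and 6 of opposite sign. At a mean of at least 7 it was 0 lower, 1 higher and 5 of opposite sign, so the lean to lower values rested on dimmer probe sets.

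Calcb encodes beta-CGRP, a peptide of sensory neurons (probe set 10710106). At 1 h it stood at 3.57, 3.58, 3.70 and 3.65 after water and at 3.48, 3.49, 3.63 and 3.46 after saccharin, which overlap through the single array C379. The 3 h levels were 3.79, 3.93, 3.77 and 3.82 after water and 3.49, 3.55, 3.47 and 3.43 after saccharin, without overlap. The difference over both times was -0.23 (standard error 0.04, limma adjusted p = 0.591), from -0.11 at 1 h and -0.34 at 3 h. At 3 h alone the adjusted p was 0.0756, and without C379, a 1 h saccharin array, Calcb was 1 of 2 probe sets called at 3 h, the other being of Rcor2. Over both times nothing was called without C379, where Calcb had an adjusted p of 0.162. Nmb, the gene of the bombesin-like peptide neuromedin B (probe set 10723220), was also lower at each time, by differences of -0.18 and -0.24, with arrays of 3.85 to 4.35 after water and 3.79 to 4.14 after saccharin. These overlap, and its difference of -0.21 had an adjusted p of 0.999.

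Csrnp1, a nuclear protein of the immediate early kind (probe set 10920967), had the smallest p of the early transcription factors. It stood at 5.55, 5.69, 5.67 and 5.58 after water and at 5.34, 5.54, 5.44 and 5.58 after saccharin at 1 h. Later, at 3 h, the arrays read 4.99, 4.82, 5.12 and 4.97 after water and 4.73, 4.71, 4.79 and 4.83 after saccharin. In both tastes it was lower at 3 h than at 1 h, and the saccharin arrays lay low at each time with a slight overlap. The difference was -0.18 (interval -0.27 to -0.08, adjusted p = 0.999), from -0.15 at 1 h and -0.21 at 3 h.

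The others that lay lower had varied roles. Pla2g2a, a secreted phospholipase A2 (probe set 10873341), differed by -0.18 at either time and did not overlap at 1 h, where water was 4.38 to 4.61 and saccharin 4.27 to 4.32. Syk, a tyrosine kinase of immune receptors, differed by -0.18 and -0.14, Nkiras2, a Ras-like inhibitor of NF-kappaB, by -0.16 and -0.18, and Serpina9, a serine protease inhibitor, by -0.16 and -0.17. For Ccdc68, a centriole protein (probe set 10802543), the differences were -0.25 and -0.14, and for the isochorismatase-like gene Isoc2b (probe set 10703930) they were -0.18 and -0.20. Or13c7 is an olfactory receptor gene, with -0.13 and -0.27. Pla2g2a, Syk, Serpina9, Ccdc68 and Or13c7 were dim, with means of 4.35, 3.77, 2.76, 3.76 and 3.61, while Nkiras2 and Isoc2b had means of 5.66 and 5.54. None of these passed the adjusted test.

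Tecr, the reductase that closes each cycle of very long chain fatty acid elongation, was the bright gene with the smallest p (probe set 10717933). Its 1 h levels were 9.01, 8.83, 9.02 and 8.91 after water and 9.08, 9.0, 9.21 and 9.06 after saccharin. Its 3 h levels were 9.06, 9.02, 9.04 and 9.07 after water and 9.17, 9.25, 9.20 and 9.18 after saccharin. The tastes did not overlap at 3 h and overlapped at 1 h through array C377. The difference was 0.15 (standard error 0.04, interval 0.07 to 0.22), the same at each time, at 0.15 and 0.15, with an adjusted p of 0.999 and an exact permutation p of 0.00122. Tecr was picked for its small p, so the exact p is not separate support. The gene's other, brighter probe set (10806855) differed by 0.03 (interval -0.03 to 0.09). Plekhf2, an endosomal protein (probe set 10875422), was higher by 0.10 at 1 h and 0.13 at 3 h, with 3 h arrays of 6.70 to 6.83 after water and 6.84 to 6.96 after saccharin.

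Across all probe sets the times hardly shared a direction. The signs at 1 h and 3 h were the same for 7720 of 15209 probe sets (50.8%). Of 465 probe sets under an unadjusted p of 0.05 at 1 h, 231 (49.7%) had the same sign at 3 h, and of 513 at 3 h, 272 (53%) had it at 1 h. Among the 100 with the smallest p at 1 h 41 kept their sign at 3 h, and among the 100 at 3 h 61 had it at 1 h. As a description over probe sets, which share arrays and probes and are not replicates, the differences at the 2 times had a Pearson r of 0.0069 and a Spearman rho of 0.02. For the 5552 bright probe sets these were 0.015 and 0.022. Over all probe sets r was 0.092 with the array number within each time as a covariate, and -0.038 to 0.036 when 1 array was left out. The 2 times share no array.

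**Figure D2:**
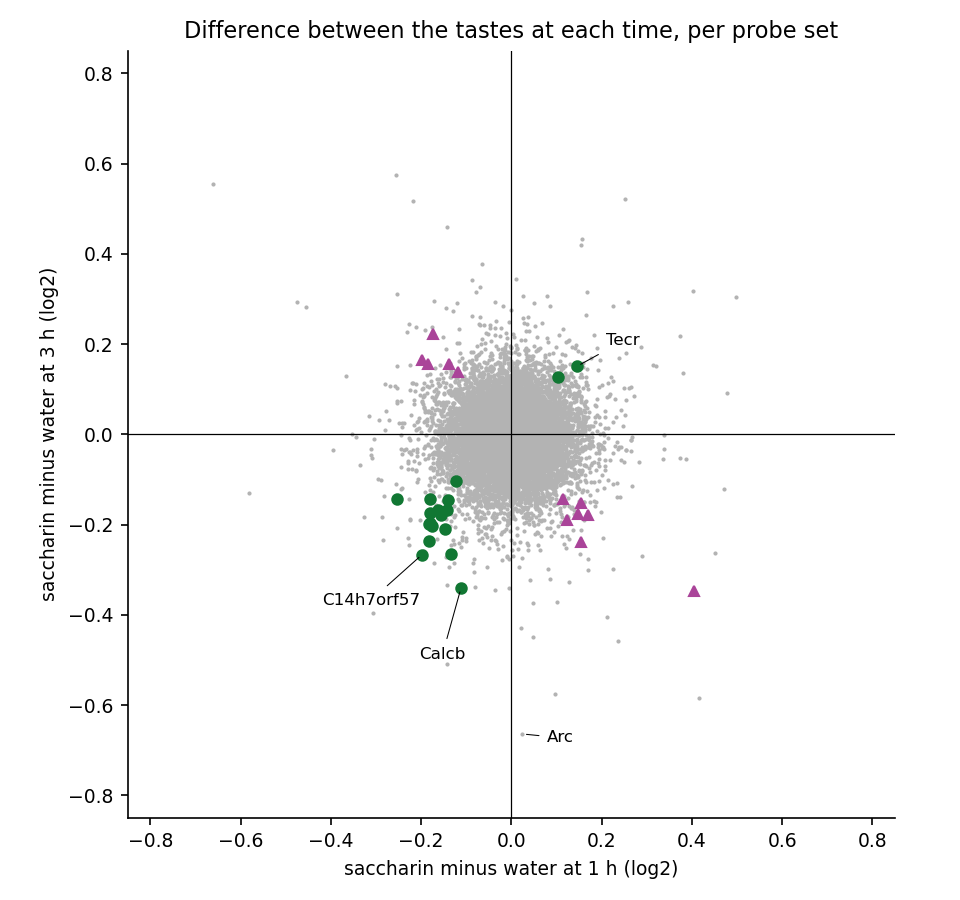
Each point is a probe set, with saccharin minus water at 1 h (horizontal, log2) and at 3 h (vertical, log2). Green circles are the 18 probe sets under an unadjusted p of 0.05 at both times with the same sign and purple triangles the 12 with opposite signs, and 4 probe sets lie outside the axes, which end at 0.85. The cloud is round, and 16 of the 18 circles lie where both differences are negative.

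The study's cut-off asks for a log2 difference of 0.32 or more together with an unadjusted p no higher than 0.05, and 6 probe sets met it (0.0395%), 4 higher and 2 lower after saccharin. They were of Mrpl41, a protein of the mitochondrial ribosome, Rcor2, a corepressor of the CoREST family, Sms, the spermine synthase, and Ska2, a protein of the spindle and kinetochore, all higher, and of Btnl8, a butyrophilin-like protein, and the open reading frame C9h6orf141, both lower. Each of these 6 genes has at least 1 further probe set, and none of the further probe sets met the cut-off. Leaving out 1 array gave 4 to 9 probe sets at this cut-off, with 9 without C371, and 1 probe set per gene, the one with the highest mean, gave 2.

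Ska2, with the smallest p of the 6 (probe set 10711496), separated the tastes at 1 h. At that time it stood at 6.63, 6.50, 6.60 and 6.62 after water and at 6.77, 7.0, 6.64 and 6.96 after saccharin, without overlap. Its 3 h arrays read 5.89, 5.73, 6.39 and 6.18 against 6.13, 6.53, 6.83 and 6.78, with overlap. The difference was 0.39 (standard error 0.10, interval 0.17 to 0.60, adjusted p = 0.999), or 1.31-fold, with 0.25 at 1 h and 0.52 at 3 h. The other Ska2 probe set (10737129), at a mean of 5.89, had a difference of -0.0026 (interval -0.13 to 0.12).

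Rcor2 had its large value at 3 h (probe set 10713496). At 1 h the arrays spread from 5.19 to 6.12 after water and from 4.66 to 6.10 after saccharin, and the difference was -0.06. At 3 h water stood at 4.61, 3.81, 3.52 and 3.66 and saccharin at 5.58, 5.24, 5.75 and 5.34, without overlap, a difference of 1.58. It was called at 3 h without water array C365, which was the highest of its group, or without C379. The second probe set (10779600) was higher after saccharin by 0.09 (interval 0.006 to 0.18), with 0.14 at 1 h and 0.04 at 3 h.

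The other 4 had wide intervals. Mrpl41 (probe set 10843854) differed by 1.00 (interval 0.12 to 1.88), and its water arrays ran from 2.44 to 5.22 at 1 h and from 2.38 to 5.12 at 3 h. Without C378, the 1 h water array at 2.44, the difference was 0.74. The brighter Mrpl41 probe set (10911993), at a mean of 7.91, differed by 0.03 (interval -0.06 to 0.12). Sms (probe set 10850929) differed by 0.40, while its brightest probe set (10933651) differed by 0.0033 and its dimmest (10765462) by -0.24 (interval -0.94 to 0.47). Btnl8 (probe set 10828331) differed by -0.33 and its other probe set (10940478) by 0.0028. C9h6orf141 (probe set 10922025) differed by -0.35 and its other probe set (10922064) by 0.02.

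**Figure D3:**
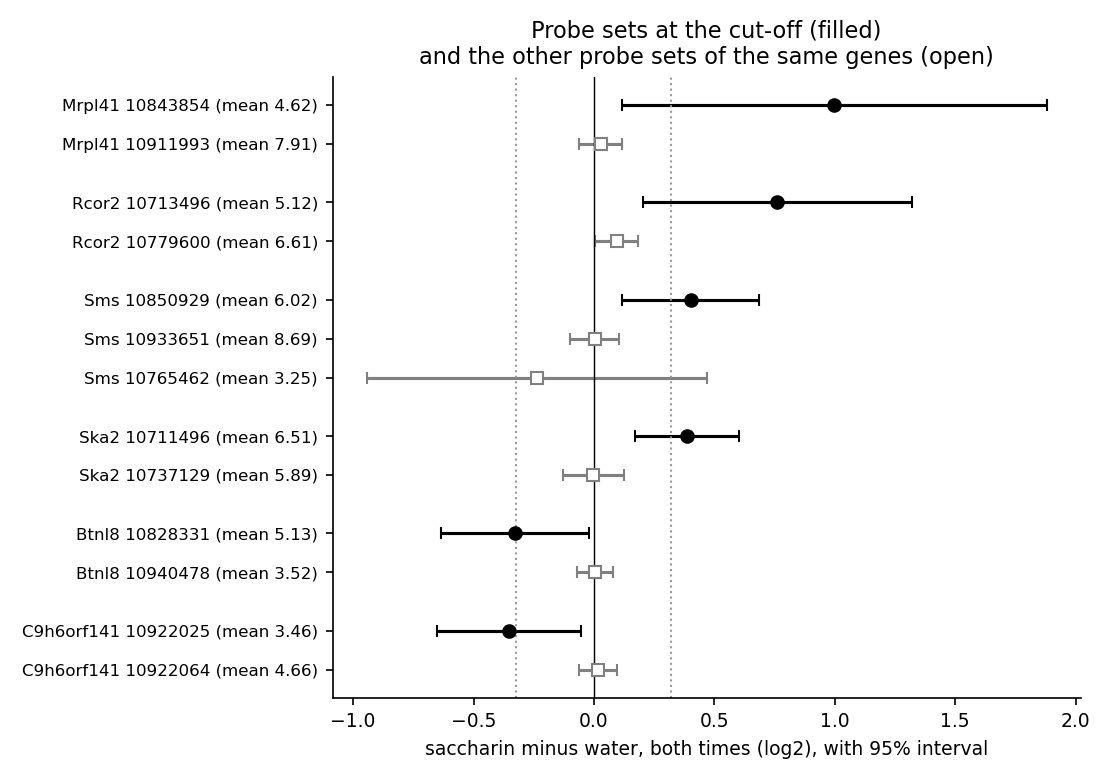
Saccharin minus water over both times (log2, horizontal) with its 95% interval for the 6 probe sets at the study's cut-off (filled circles) and for the other probe sets of the same genes (open squares). The dotted lines mark 0.32 either way. The filled points lie outside the dotted lines and the open squares between them.

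Among bright probe sets the genes with the smallest p were higher after saccharin by 0.11 to 0.28 on the log2 scale. Atp1b2, the beta-2 subunit of the sodium pump (probe set 10744098), had arrays of 9.04, 9.22, 9.04 and 9.16 after water and 9.25, 9.19, 9.22 and 9.16 after saccharin at 1 h. The 3 h arrays had 9.03, 9.14, 9.05 and 9.10 against 9.20, 9.23, 9.24 and 9.26, without overlap. The difference was 0.12 (interval 0.05 to 0.19, adjusted p = 0.999). Next in this order were Nsrp1, a splicing regulator of nuclear speckles, at 0.11, Phf21a, a reader of unmethylated histone H3 that works with the CoREST complex, at 0.12, Top1, DNA topoisomerase I, at 0.28, and Hmgn3, a nucleosome-binding protein, at 0.11. Nsrp1 did not overlap at 3 h. The other probe set of Top1 (10841829), which was brighter, differed by 0.0010 (interval -0.07 to 0.07).

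The bright genes lower after saccharin were Mbd1, which binds methylated DNA, at -0.09, Slc25a44, a mitochondrial carrier of branched-chain amino acids, at -0.10, Sema4a, a semaphorin, at -0.11, Pex6, an ATPase of peroxisome assembly, at -0.07, Rpl35a, a ribosomal protein, at -0.16, and Stard3, a sterol carrier of late endosomes, at -0.08. All 12 of these bright probe sets had the same sign at both times, a feature that a small p over both times favours. Rpl35a has 7 probe sets, and the other 6 differed by -0.02 to 0.07. Pex6 did not overlap at 3 h, and its other probe set (10921677) differed by -0.03.

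The direction of the small differences went with the level of the probe set. Below a mean of 5, 223 of 5530 probe sets were lower after saccharin at an unadjusted p under 0.05 and 84 higher. From 5 to 7 it was 83 and 65 of 4127. At 7 and above it was the reverse, 20 lower and 61 higher of 5552. When quantile normalization was repeated over the tested probe sets, the split became 129 lower and 152 higher below 5, 81 and 70 from 5 to 7, and 38 and 50 at 7 and above, with 248 lower and 272 higher in all. Without water array C378 the bright probe sets divided into 47 lower and 46 higher, and without saccharin array C368 into 35 and 33. The values of C378 were the least spread of the 16 (SD 2.16, the others 2.18 to 2.22). Below a mean of 5 the lean stayed, at 197 lower and 110 higher without C378 and at 174 and 109 without C368.

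The families of chemosensory receptors, which are not expected in cortex and give dim probe sets, show the same lean. Of 1104 olfactory receptor genes 407 had a positive difference, with a median of -0.015, and of 133 vomeronasal receptor genes 40, with a median of -0.024, beside 49.2% and a median of -0.0009 over all probe sets. After repeated quantile normalization these were 544 with a median of -0.0008 and 59 with a median of -0.005. Of the 223 dim probe sets lower after saccharin, 69 (30.9%) were of these 2 families, which make up 1231 (22.3%) of the 5530 dim ones. C14h7orf57, Tulp2 and Calcb have means below 5, whereas Dtwd2 does not.

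**Figure D4:**
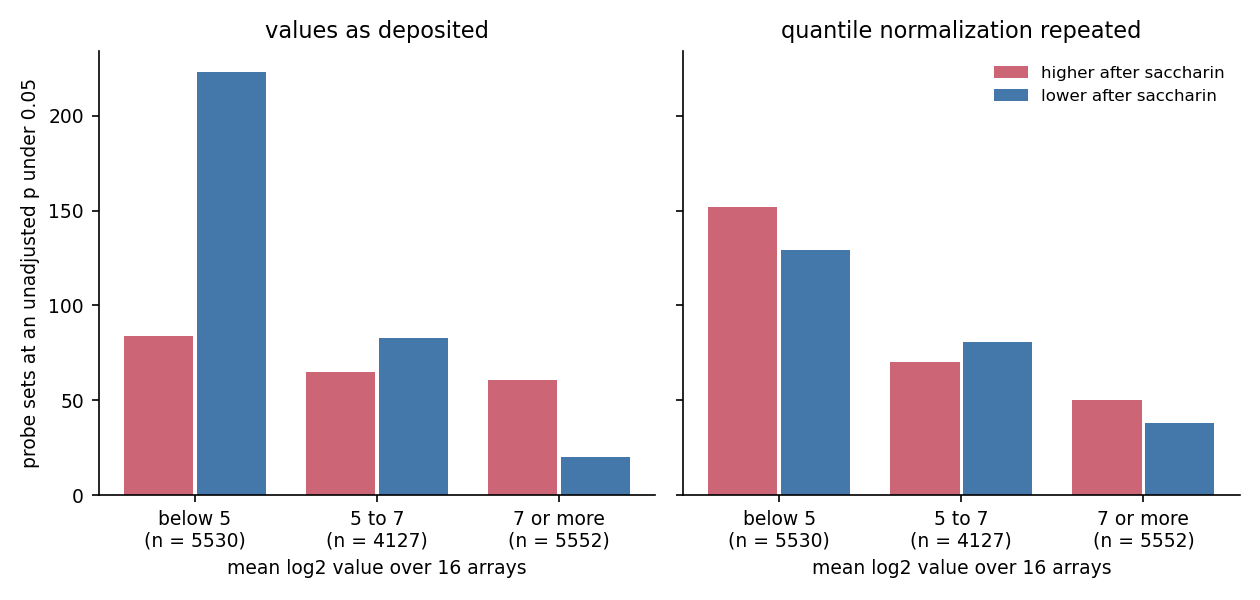
Number of probe sets at an unadjusted p under 0.05 (vertical axis) that were higher (red) or lower (blue) after saccharin, by the mean log2 value of the probe set, for the values as deposited (left) and after quantile normalization was repeated (right). The excess of lower probe sets below a mean of 5, 223 against 84, is 129 against 152 on the right.

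Genes that neurons switch on with activity did not keep 1 direction. Immediate early transcription factors, 27 of them measured, had 18 members above water at 1 h and 5 at 3 h, with median differences of 0.022 and -0.11, beside 51.8% and 47.7% positive and medians of 0.0025 and -0.0034 over all probe sets. Over both times 0 passed the adjusted test and 2, Csrnp1 and Klf10, were lower at an unadjusted p under 0.05, with 7 positive and a median of -0.029. Of 28 activity-regulated synaptic and secreted genes 22 were higher after saccharin at 1 h and 5 at 3 h. Of 15 MAP kinase feedback inhibitors it was 12 and 7, and of 17 glucocorticoid target genes 14 and 2. Dusp1 and Errfi1 belong to both the MAP kinase and the glucocorticoid list. Within single genes the interaction reached an unadjusted p under 0.05 in 5 of 27 early transcription factors, beside 2.96% of all probe sets (450 of 15209). It did so in 1 of 28 synaptic and secreted genes, 1 of 15 MAP kinase inhibitors and 2 of 17 glucocorticoid targets.

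Arc, the cytoskeletal protein of recently active synapses (probe set 10904511), stood at 8.63, 9.17, 9.03 and 9.09 after water and at 8.76, 8.98, 9.20 and 9.08 after saccharin at 1 h. The 3 h levels were 8.67, 7.26, 7.45 and 7.89 after water and 6.88, 7.20, 7.26 and 7.27 after saccharin. The highest of the 3 h water values is that of C365, and the lowest water values reach into the saccharin range. The difference was 0.02 at 1 h, -0.66 at 3 h and -0.32 over both (interval -0.67 to 0.03, adjusted p = 0.999; exact permutation p = 0.117). Without C365 it was -0.16 over both times.

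Klf10, a zinc finger repressor induced by growth factors (probe set 10903459), was level at 1 h, at 7.07, 7.09, 7.30 and 6.96 after water and 7.01, 7.03, 7.19 and 7.27 after saccharin. At 3 h it stood at 6.54, 6.14, 5.99 and 6.52 against 5.96, 5.88, 5.74 and 5.90, without overlap, so that its difference over both times, -0.20, comes from 3 h. Nr4a1, an orphan nuclear receptor, differed by 0.05 at 1 h and -0.45 at 3 h, Dusp6, a phosphatase of ERK, by 0.04 and -0.32, Dusp1, a MAP kinase phosphatase, by 0.02 and -0.29, and Fos, a subunit of AP-1, by 0.12 and -0.25. Without C365 the combined difference of Nr4a1 went from -0.20 to -0.06 and that of Fos from -0.07 to 0.04. Without C365, 15 of the 27 early transcription factors were positive over both times and 7 at 3 h, with a 3 h median of -0.062, and 18 of the 28 synaptic and secreted genes were positive over both times and 7 at 3 h. The combined count also moved with other arrays. It was 4 of the 27 without C373, and 16 of the 28 without C372 or 6 without C378. The 3 h median of the early transcription factors was -0.066 without saccharin array C366, close to its value without C365. That of the synaptic and secreted genes was -0.053, and it was -0.032 without C365 and -0.033 without C370. The 3 h median of the MAP kinase inhibitors, -0.048, was -0.012 without C365 and 7e-05 without C372. At 1 h the median of the early transcription factors, 0.022, ran from 0.0081 without C377 to 0.069 without C376, and that of the synaptic and secreted genes, 0.037, from 0.0091 without C378 to 0.059 without C374.

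Markers of the leptomeninges and fibroblasts, which cover the cortex, went the same way as these lists. Of 18, 13 were higher after saccharin at 1 h and 5 at 3 h. So did cortical excitatory neuron markers, with 7 of 8 and 2 of 8, and REST and its corepressors, with 6 of 8 and 3 of 8. Other lists went the opposite way, among them microglia markers, with 2 of 11 and 7 of 11, and astrocyte markers, with 5 of 11 and 9 of 11. The mean level of the meningeal markers ran from 6.62 to 6.90 after water and 6.68 to 6.90 after saccharin at 1 h. At 3 h it ran from 6.35 to 6.75 and 6.15 to 6.75. With this mean as a covariate, 19 of the 27 early transcription factors were positive at 1 h and 5 at 3 h, and 21 and 6 of the 28 synaptic and secreted genes. Without C371 or without C372 the meningeal markers had 13 of 18 positive at 3 h, so their 3 h direction rested on either array. The fit with the meningeal mean does not measure the part of these cells in the other lists, which was not tested.

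**Figure D5:**
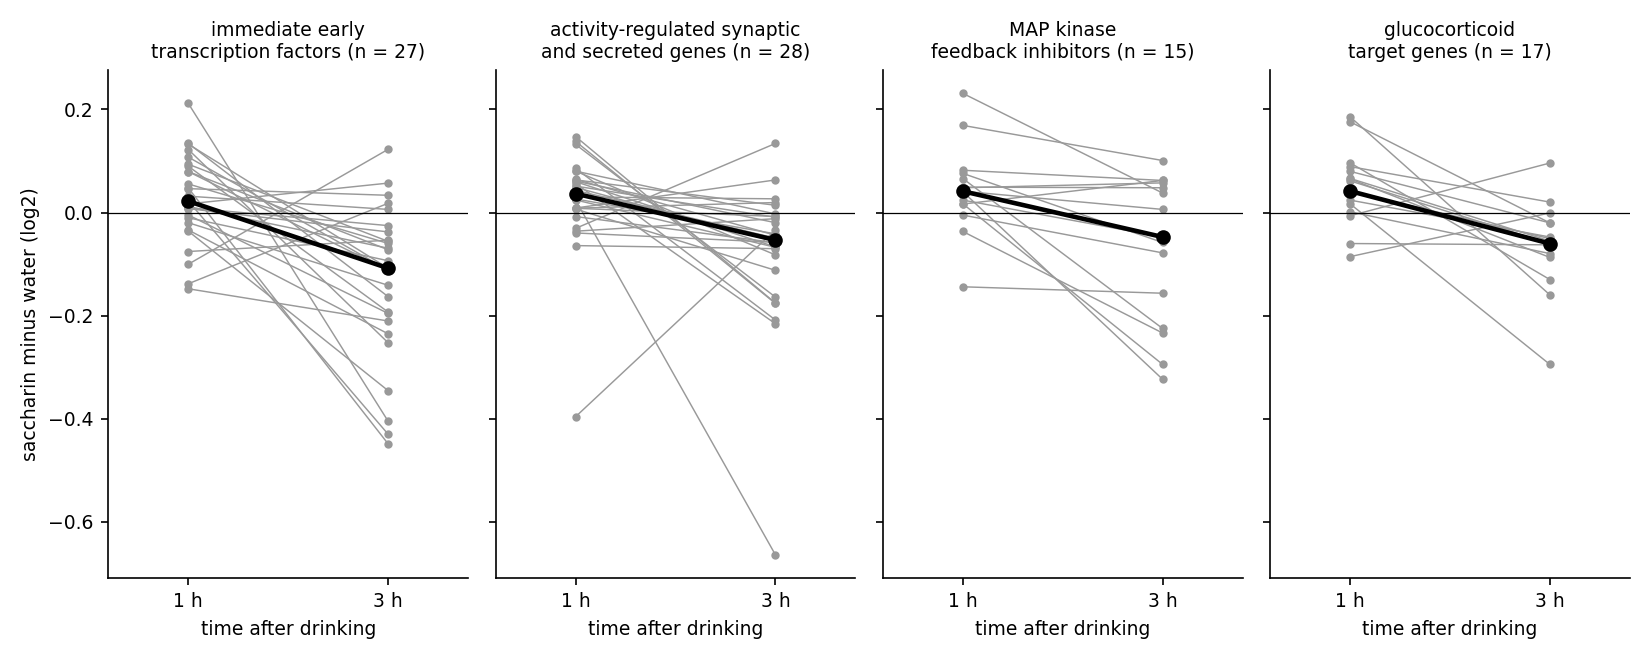
Saccharin minus water (vertical, log2) at 1 h and at 3 h for each measured member of 4 gene lists (grey lines), with the median of the list in black. The medians lie above 0 at 1 h, from 0.022 to 0.042, and below 0 at 3 h, from -0.11 to -0.048.

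Among the MAP kinase inhibitors 3 had an unadjusted p under 0.05 over both times, with 2 above water and 1 below, beside 1.38% higher and 2.14% lower over all probe sets. With the array number as a covariate it was 0 above and 2 below, and without C365 4 above and 1 below. Dusp2, a nuclear phosphatase of ERK (probe set 10839579), differed by -0.14 at 1 h and -0.16 at 3 h, with arrays of 5.46 to 5.69 after water and 5.26 to 5.58 after saccharin, which overlap. Spry1, a Sprouty inhibitor of growth factor signalling (probe set 10815049), differed by 0.17 and 0.10, and Spry4, of the same family, by 0.23 and 0.04.

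Receptor and peptide genes gave few differences. Of 27 dopamine, noradrenaline and serotonin receptor genes 8 were positive, with a median of -0.022, and 3 reached an unadjusted p under 0.05, 1 higher and 2 lower. Over all probe sets 49.2% were positive, 1.38% were higher at that p and 2.14% lower. Drd5, the D5 dopamine receptor (probe set 10777311), was higher after saccharin, at 3.86, 3.81, 4.17 and 3.93 after water against 4.15, 4.08, 4.09 and 4.22 at 1 h and at 4.06, 3.88, 4.03 and 4.02 against 4.27, 4.12, 4.03 and 4.14 at 3 h. It overlapped at both times, and its difference was 0.17 (interval 0.06 to 0.27). Adra2c, an alpha-2 adrenergic receptor (probe set 10777517), differed by -0.11 and Htr3b, a subunit of the 5-HT3 receptor, by -0.10. Of 19 genes of acetylcholine receptors and handling, 22 glutamate receptor subunits and 12 GABA-A receptor subunits, 0 reached an unadjusted p under 0.05 in limma, and the lists had medians of -0.0017, 0.019 and 0.0014. In these 3 lists the interval lay within ±0.32 for 19, 21 and 12 members.

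Of 27 neuropeptide genes 13 were positive, and Calcb and Nmb were the 2 at an unadjusted p under 0.05. Over all probe sets 49.2% were positive, and 1.38% were higher and 2.14% lower at that p. Npy, of inhibitory neurons, differed by 0.06 and Cck, cholecystokinin, by -0.04. Of 34 genes of taste receptors and taste transduction, dim in this tissue with a median level of 3.00, 12 were positive and 1 was under 0.05. This was Gnat3, gustducin, the G protein of taste cells (probe set 10860314), with a difference of -0.14 and a mean of 2.97. Of 14 osmotic response genes 12 were positive, beside 57.4% of all probe sets at a mean of 7 or more. Their median difference was 0.034 and their median level 8.38. By time 11 were positive at 1 h and 9 at 3 h, and 8 had the same sign at both. The 1 under 0.05 went the other way. It was Aqp1, a water channel (probe set 10855701), with arrays of 4.97 to 5.53 after water and 4.68 to 5.23 after saccharin and a difference of -0.21, from -0.22 at 1 h and -0.19 at 3 h.

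Kinases, translation and the clock were close to level. Of 22 memory kinases and CREB partners 15 were positive with a median of 0.017, and 0 reached an unadjusted p under 0.05 in limma. Over all probe sets 49.2% were positive, and 57.4% of those at a mean of 7 or more. Of 32 genes of translation control 21 were positive with a median of 0.008, all 32 intervals lay within ±0.32, and the 1 under 0.05 was Eif2b4, a subunit of the exchange factor eIF2B (probe set 10883109), at 0.09. The 23 chaperone genes and 15 clock genes had medians of -0.0054 and -0.0028 with 0 members under 0.05 in either list. REST and its corepressors, 8 genes, had a median of -0.014, and the 1 member under 0.05 was the brighter probe set of Rcor2. The 10 reference genes had a median of 0.028, with Gapdh, a glycolytic enzyme, at 0.03 (interval -0.05 to 0.11) and Actb, beta-actin, at -0.02 (interval -0.10 to 0.05), and the sign of Gapdh turned to -0.0092 when quantile normalization was repeated.

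Markers of red blood cells were the cell type list that lay furthest on one side, with 0 of 7 positive and a median of -0.11. Their median level was 3.74, and below a mean of 5 40.5% of all probe sets were positive. Repeated quantile normalization gave 1 of 7 positive and a median of -0.091. The 3 members with a mean of at least 5 had a median of -0.23. At 3 h the median of the list was -0.069, and it was -0.018 with 3 of 7 positive without C366 and -0.16 without C370. Alas2, the first enzyme of haem synthesis in red cells (probe set 10932912), stood at 5.31, 5.36, 5.12 and 5.36 after water and at 4.97, 4.65, 5.38 and 5.23 after saccharin at 1 h. At 3 h it stood at 5.25, 5.26, 5.0 and 4.97 against 4.82, 4.88, 5.03 and 4.83. The ranges overlap at both times, through 2 saccharin arrays at 1 h and 1 at 3 h, and the difference was -0.23 (interval -0.40 to -0.06, adjusted p = 0.999). Rhag, a membrane protein of red cells, differed by -0.11, the beta globin genes Hbb and Hbb-b1 by -0.23 and -0.20, Ahsp by -0.07, Slc4a1 by -0.04 and Epb42 by -0.0042. The mean of the 7 ran from 5.14 to 5.26 after water and 4.89 to 5.26 after saccharin at 1 h, and from 4.98 to 5.10 and 4.85 to 5.19 at 3 h. How much blood each sample held was not measured in another way, and its part in the lower values of blood-borne genes was not tested.

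Other cell type lists were mixed. Of 15 markers of blood monocytes, neutrophils and lymphocytes 7 were positive, and Ccr2, a chemokine receptor of monocytes (probe set 10914614), was the 1 under an unadjusted p of 0.05. Its difference of -0.17 came from 1 h, where water stood at 4.24, 4.12, 4.11 and 4.13 and saccharin at 3.62, 3.95, 3.77 and 3.88 without overlap, against a difference of -0.0051 at 3 h. Of 8 claustrum and endopiriform markers 1 was positive with a median of -0.039, and 0 reached an unadjusted p under 0.05 in limma. Oligodendrocyte markers were positive in 12 of 13 with a median of 0.024. Without water array C373 they were positive in 5 of 13 with a median of -0.0078, and without saccharin array C372 in 7 of 13. The claustrum and oligodendrocyte lists had median levels of 8.1 and 8.65. Of all probe sets at a mean of 7 or more, 57.4% were positive. Endothelial and mural markers held Rgs5, a pericyte gene, at 0.13 and Tagln, of smooth muscle, at -0.17. Leptomeningeal Slc6a13, a GABA transporter, was at 0.18. Markers of excitatory neurons, interneurons, striatal neurons, astrocytes, microglia, and choroid plexus and ependyma had medians of 0.0049, 0.026, -0.0032, 0.025, -0.0021 and -0.0082, with 0 members under 0.05 in limma.

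The interaction of taste and time, which tests whether the difference between the tastes changed from 1 h to 3 h, called 0 of 15209 probe sets in limma, with a smallest adjusted p of 1 and 450 (2.96%) at an unadjusted p under 0.05. Rcor2 (probe set 10713496), Asgr1, a liver lectin, Ephb3, an ephrin receptor, and Agmat, agmatinase, were among those with the smallest p. Ephb3 (probe set 10755260) was higher after saccharin by 0.15 at 1 h and differed by -0.24 at 3 h, Asgr1 (probe set 10735159) by 0.12 and -0.19, and Agmat (probe set 10873760) by -0.17 and 0.22. Ephb3, Asgr1 and Agmat nearly cancelled when the times were combined, with differences over both times of -0.04, -0.03 and 0.02. Rcor2 did not, at 0.76, from -0.06 at 1 h and 1.58 at 3 h.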

How the data were processed

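RNA from the GC of 16 rats was hybridised to 1-colour gene arrays, 1 array per rat. The deposited values are log2 expression: the authors normalized by quantiles across all chips and summarised probe sets by RMA in the affy package (its version was not given in the sources used here). Values were used as deposited. Of 28826 probe sets, 15209 were paired with 1 gene in the platform annotation (14497 genes), 306 with several and 13311 had no entry or symbol. The symbols of 15178 were found in the RefSeq table. Depth has no counterpart on arrays, and their number limits the precision.

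Each probe set was fitted in limma 3.58.1 (R 4.3.3) with terms for time and taste over all 16 arrays, with Benjamini-Hochberg adjustment over the 15209. The differences at 1 h, at 3 h and the interaction came from 4 group means. Single genes were also tested by a two-sided exact permutation of the tastes within each time (4900 arrangements, smallest p 0.000408). The fits were tested on simulated data.

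The members, lists and tests were chosen with earlier results of these data known. Genes were named by rule: the 8 probe sets in each direction with the smallest p, the 6 in each direction among bright ones, those without overlap in the same direction at both times, those at the study's cut-off, the 2 members of each list with the smallest p (the rule allowed up to 4), a fixed set of genes, and those with the smallest interaction p. A few further list members were named after their values were seen. For genes of lists with several probe sets the brightest was used. Rats are taken as separate samples. Alternatives covered the probe sets tested, the filter, normalization, variance prior, array weights, model terms and each array left out.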

Additional observations from a re-analysis of the deposited data

Results flagged for a closer look

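In groups of 4 arrays, 1 array stood apart from the other 3 by Dixon's criterion at 95% in 14 of 396 groups of the named genes, where chance gives about 1 in 20, and no array was involved more than 2 times. Among the genes named for their own differences, Tulp2 in saccharin 1 h array C379 stood at 2.85, with the others at 3.13 to 3.16. Calcb in the same array stood at 3.63, with the others at 3.46 to 3.49, and this is the array through which Calcb overlapped at 1 h. Ccdc68 in water 1 h array C378 stood at 4.03, with the others at 3.80 to 3.83, and Mrpl41 in that array at 2.44, with the others at 4.88 to 5.22. Ccr2 in water 1 h array C373 stood at 4.24, with the others at 4.11 to 4.13.

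Among markers and list members, Oprk1, the kappa opioid receptor, stood at 5.83 in water 3 h array C365 (others 6.24 to 6.30) and at 6.03 in saccharin 1 h array C377 (others 5.64 to 5.70). Mbp, of myelin, stood at 10.7 in saccharin 3 h array C372 (others 10.2 to 10.3). Enpp2 stood at 8.52 in water 1 h array C373 (others 8.68 to 8.70), and Aif1, of microglia, at 6.15 in water 1 h array C376 (others 6.28 to 6.30). Eif2s2 stood at 8.43 in saccharin 1 h array C380 (others 8.52 to 8.53), and Chrna2 at 3.17 in saccharin 3 h array C368 (others 3.14 to 3.15). Vom1r31 stood at 2.79 in water 3 h array C369 (others 2.64 to 2.65) and Vom1r74 at 2.86 in saccharin 1 h array C377 (others 2.68 to 2.70).

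Lgals4 (probe set 10705642), a galectin of the gut, had all saccharin arrays below water at 1 h and all above at 3 h, with differences of -0.15 and 0.06. The interaction was -0.21 (1 h minus 3 h, standard error 0.07), and limma's adjusted p of 1 did not pass.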

How the results depend on the processing

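Over both times 0 probe sets were called in every alternative that kept the adjusted p, and 6 by the study's cut-off in its place. The interaction and the 1 h comparison stayed at 0. At 3 h leaving out 1 array gave 0 to 2 calls, with 1 (Rcor2) without C365 and 2 (Calcb and Rcor2) without C379. The count without overlap in the same direction at both times was 3. It was 5 over all probe sets of the array, 1 at a mean of at least 5 (Dtwd2), 0 at a mean of at least 7, 5 after centring arrays on the median and 4 after repeated quantile normalization. Leaving out 1 array gave 4 to 12, which fewer arrays favour by construction. The 3 genes were among them each time, which was fixed in advance and adds no support. Groups that do not overlap still do not overlap when an array is removed. The 6 probe sets at the study's cut-off became 38 over all probe sets, 2 with 1 per gene, 0 at a mean of at least 7, and 3 with a trended robust prior, 3 without moderation and 3 with array weights. Leaving out 1 array gave 4 to 9.

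Some differences near 0 changed sign. Repeated quantile normalization gave Gapdh -0.0092 and Sms (probe set 10933651) -0.00369, and the array number as covariate gave Ska2 (probe set 10737129) 0.0125. Leaving out 1 array gave Fos -0.115 to 0.0374 (the highest without C365), Sms (probe set 10765462) -0.429 to 0.0365 (the highest without C365), Sms (probe set 10933651) -0.0204 to 0.0251, Agmat -0.00225 to 0.0738, LOC681325 -0.0485 to 0.0166, C9h6orf141 (probe set 10922064) -0.00367 to 0.0350, Btnl8 (probe set 10940478) -0.0172 to 0.0187 and Ska2 (probe set 10737129) -0.0434 to 0.0167. The cause was not tested.

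No paired analysis was possible because each array number occurs in 1 group only. Precision is limited by 4 rats per group, and probe sets below a mean of 5 lie low on the scale.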
